A study of Mus musculus with 16 samples.

Results

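The ribosomal share is the percentage of a cell's transcript counts that came from ribosomal genes, given for every cell in the deposited metadata table of the mouse tumors. The authors summed the genes. The table holds that sum and no single gene, and the list of genes behind it is not given in the sources used here, so the ribosomal genes are described as a single group. All 163343 cells of the table carried a value, and they are described over 15 annotated cell classes, 39 clusters, 3 cell cycle phases and 16 tumors.

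Ribosomal protein genes code for the proteins that, with ribosomal RNA, form the small and the large subunit of the ribosome, the machine that translates mRNA. Their mRNAs are short, abundant and long-lived, and the translation of most of them is switched together with nutrient and growth signals through mTOR by a pyrimidine-rich start of the transcript. In single-cell libraries primed on the poly(A) tail they are among the most frequent transcripts of lymphocytes and of growing cells, while neutrophils carry little RNA of any kind. A share is a relative measure, so a lower value can come from fewer ribosomal transcripts or from more of the others.

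The tumors were grown from B78, an amelanotic (unpigmented) mouse melanoma line, injected subcutaneously into male C57BL/6 animals aged 8 to 11 weeks, and whole tumors were profiled by droplet 3′ single-cell RNA sequencing. A mitochondrial base editor had written a stop codon into mt-Nd5, the mitochondrial gene of a subunit of respiratory complex I. The mutant groups were mt.11944 60%, mt.12436 60% and mt.12436 80% (3 tumors each), named by the edited position and the heteroplasmy, the edited fraction of a cell's mitochondrial DNA in percent, and the reference was 7 tumors of wild-type (WT) cells. Each mutant group came from a single edited cell population, so the data do not show how lines edited separately would vary, and only the cancer cells carried the edit: the host cells of every tumor were of the same strain. The table names 3 batches without saying what they mark. Batch 1 held the 3 mt.11944 60% tumors and WT tumors 1, 2 and 3, batch 2 held the 3 mt.12436 60% tumors and WT tumors 4, 5 and 7, and batch 3 held the 3 mt.12436 80% tumors and WT tumor 6 alone.

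A tumor gave 6371 to 13448 cells, with a median of 3130.5 to 7527.5 transcript counts (unique molecular identifiers, UMIs) per cell. The classes are the authors' annotation, which used copy-number calls, so the calls are no independent check of the cancer class: 98.4% of cancer cells were called aneuploid, against 0.014% of monocytes. The class named Fibroblast went against its label in part, since 29.1% of its cells were called aneuploid. An epithelial score above 0 was found in 44.1% of Fibroblast cells and 81.7% of cancer cells. In the remaining classes it was found in 12.6% (neutrophils) to 39.2% (erythroid cells). Because the table holds no genes, no class could be checked against its markers. No cell was called a doublet, and 6591 cells (4.04%) had a barcode that also occurs in another library.

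Over all cells the ribosomal share ran from 0.959% to 68.3%, with a median of 16.6% and quartiles of 12.0% and 23.8%. Ribosomal genes made up 21.6% of all UMIs. Most of the spread between cells lay between classes and clusters. The class of a cell took up 53.5% of the variance of its share and the cluster 61.7%. The tumor took up 8.42% and the batch 7.37%. Classes and clusters were made from the expression of the same cells, so part of their difference can be built in. Tumor medians lay between 12.4% and 20.8%.

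Cells of the class Fibroblast and cancer cells stood at the top of the order and neutrophils at the bottom. The mean of the 16 tumor medians was 24.6% ± 4.35 in Fibroblast cells and 24.2% ± 1.65 in cancer cells, against 7.63% ± 2.24 in neutrophils (SD, n = 16 tumors). Fibroblast had the highest median in 9 tumors, cancer cells in 6 and T cells in 1, and neutrophils the lowest in all 16. These levels are a description over shared libraries, with no test.

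Lymphocytes followed the cancer cells. The class T cells had 23.2% ± 1.97, NK cells, the innate killer lymphocytes, 21.2% ± 2.74, and CD8 T cells, the cytotoxic lineage, 20.2% ± 2.36. CD4 T cells, the helper lineage, stood apart from these with 15.1% ± 2.20, and B cells, the antibody-producing lineage, with 16.7% ± 1.56 (SD, n = 16 tumors each). CD8 T cells were above CD4 T cells in 16 of 16 tumors, by 5.07 ± 1.05 percentage points within a tumor.

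Myeloid and endothelial cells had lower shares. Dendritic cells, the main antigen-presenting cells, had 15.1% ± 1.39, monocytes 13.9% ± 1.65, and macrophages, the phagocytes that monocytes can become, 12.1% ± 1.59. Endothelial cells, which line the vessels, had 12.6% ± 2.83. Neutrophils, short-lived granulocytes, were below macrophages in 16 of 16 tumors, by 4.44 ± 1.48 points. A neutrophil gave a median of 1372 UMIs, of which 85 were ribosomal. Mast cells (21.4% ± 4.48), erythroid cells (16.7% ± 5.04) and basophils (13.5%, 22 cells from 11 tumors) rested on few cells.

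**Figure D1:**
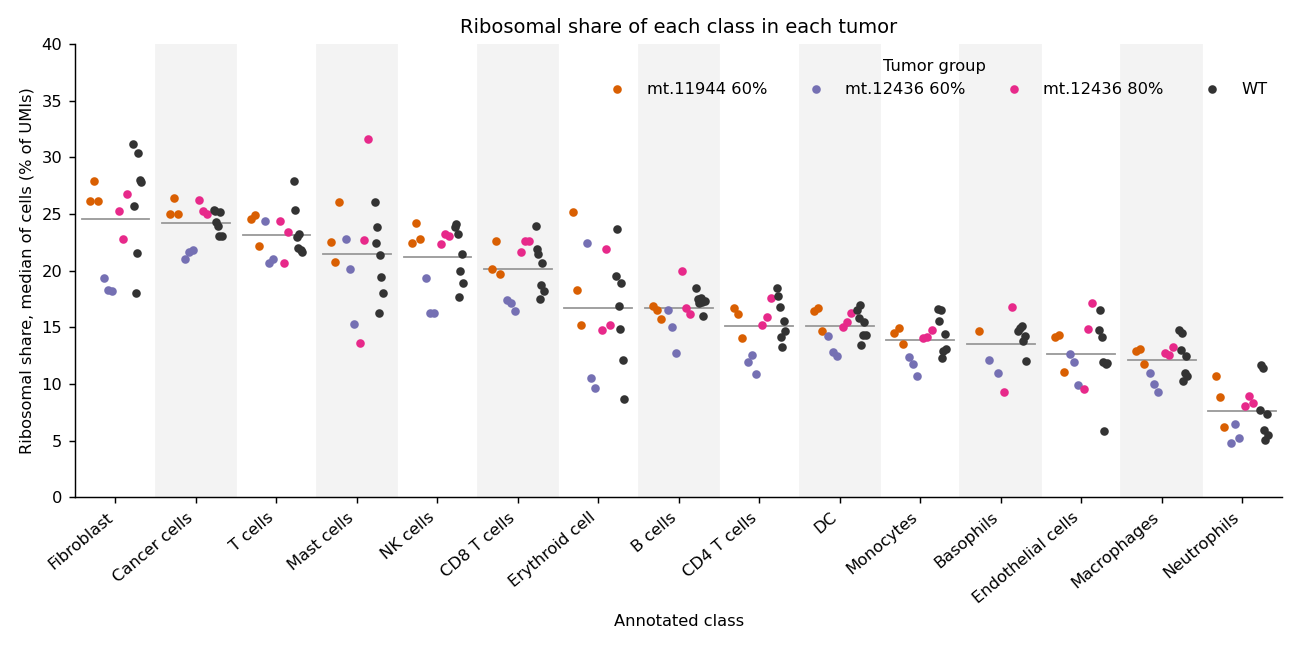
Median ribosomal share (% of the UMIs of a cell, y axis) of each annotated cell class (x axis), with 1 point per tumor, coloured by tumor group. Neutrophils sit lowest with a mean of 7.63%, while Fibroblast cells (24.6%) and cancer cells (24.2%) sit at the other end.

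Several neighbours in this order did not differ beyond their spread over tumors. Fibroblast cells were above cancer cells in only 9 of 16 tumors (0.377 ± 3.67 points), CD4 T cells above dendritic cells in 9 of 16 (0.0327 ± 1.16 points), and endothelial cells above macrophages in 11 of 16 (0.576 ± 2.29 points). Cancer cells were above T cells in 12 tumors, and T cells above NK cells and NK cells above CD8 T cells in 13 tumors each. The steps from CD8 to CD4 T cells and from macrophages to neutrophils were larger than their spread, as was the step from dendritic cells to monocytes (1.18 ± 0.564 points, 15 of 16 tumors).

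Cancer cells held most of the ribosomal transcripts in the table. They were 37.5% of the cells and gave 69.9% of all UMIs and 79.7% of the ribosomal UMIs. Monocytes were 25.9% of the cells and gave 7.29% of the ribosomal UMIs, macrophages 17.1% and 6.09%, and neutrophils 5.42% and 0.382%. With fewer cells of a class, these sums fall without any change in a cell.

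Within classes the clusters, which were drawn from expression, differed again. The highest of the 39 was cluster 15, of the class Fibroblast, with 31.2% ± 4.75 (range over tumors 20.1% to 38.3%). The next 4 were cancer cell clusters: cluster 13 with 27.3% ± 1.64, cluster 10 with 26.9% ± 1.75, and clusters 11 and 9 with 26.7% each. The lowest were cluster 7 (neutrophils, 7.16% ± 1.96), cluster 22 (macrophages, 7.52% ± 1.87) and cluster 30 (macrophages, 8.76% ± 1.27). All of the highest clusters thus came from the cancer and Fibroblast classes and the lowest from phagocytes.

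Cancer cell clusters spanned several points. Cluster 13 was above cluster 2, the lowest cancer cluster (20.2% ± 1.30), by 7.12 ± 0.812 points and in 16 of 16 tumors. Among cells called G1 alone the gap was 7.08 ± 0.908 points, again in 16 of 16 tumors. Cluster 8 (21.4% ± 1.31) was above cluster 2 in 15 of 16 tumors, by 1.21 points.

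Macrophage clusters lay far apart. Cluster 36 had 19.2% ± 2.71 and was above cluster 22 in all 10 tumors with enough cells of both, by 12.7 points. In cluster 36, 26.0% of the cells were called aneuploid, and in cluster 22 the median mitochondrial share was 2.32%, at 1316 UMIs per cell. What part these cells' quality or mixed identity had in their shares was not tested. Smaller steps with a fixed direction were seen between monocyte clusters 1 and 6 (2.69 ± 0.602 points, 16 of 16 tumors), dendritic cell clusters 19 and 29 (3.41 ± 0.969 points, 16 of 16) and neutrophil clusters 35 and 7 (3.63 ± 0.937 points, 14 of 14). CD8 T cell clusters 24 and 33 had no fixed order (0.541 ± 2.65 points, 9 of 16 tumors).

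**Figure D2:**
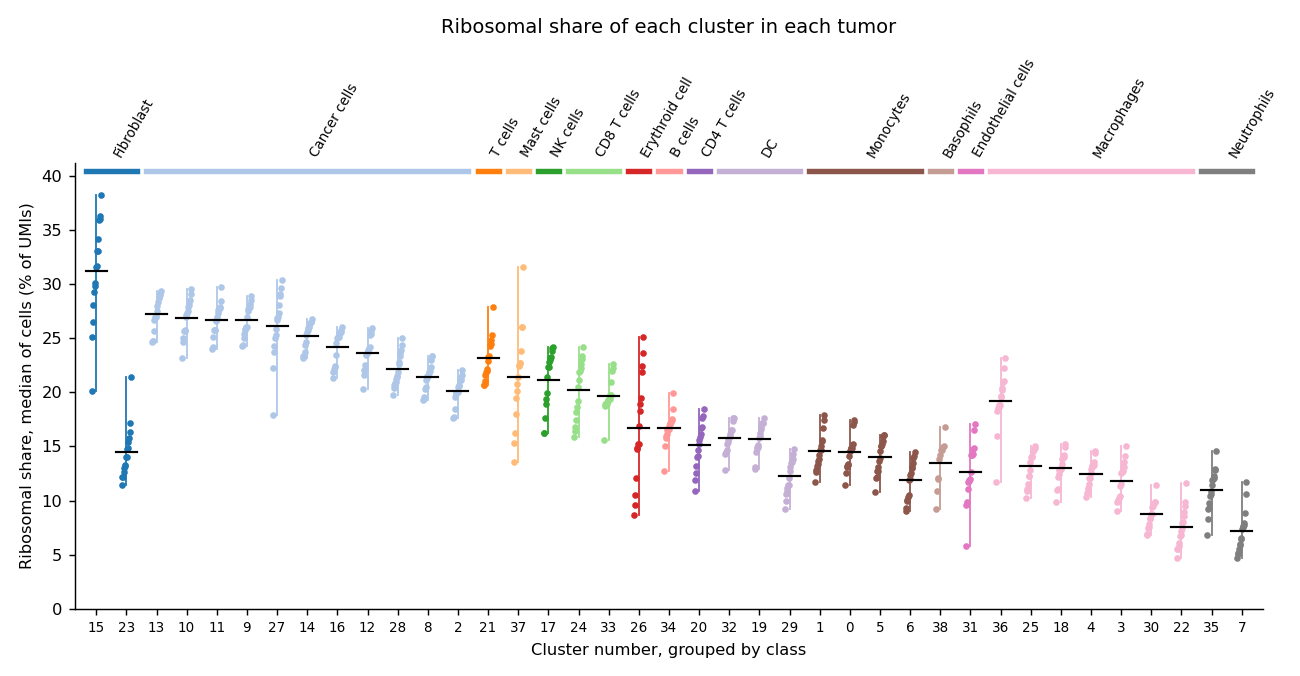
Median ribosomal share (% of the UMIs of a cell, y axis) of each of the 39 clusters (x axis), with 1 point per tumor and the mean over tumors marked. Cluster 15 of the class Fibroblast is highest (31.2%), and cluster 7 of the neutrophils (7.16%) and cluster 22 of the macrophages (7.52%) are lowest.

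Cells within a class differed by far more than counting error. The SD over Fibroblast cells was 12.6 points, 15.2 times the 0.83 points that counting of their UMIs gives, and over cancer cells 5.90 points, 14.9 times the counting error. In neutrophils the SD was 2.79 points, 3.81 times the counting error. Both extremes were concentrated in a few clusters. Of the 851 cells with a share over 40% (0.521% of all cells), 654 were Fibroblast cells, 652 of them from cluster 15, and 175 were cancer cells. Of the 4431 cells under 5% (2.71%), 2318 were neutrophils, 2299 of them from cluster 7, and 822 were macrophages. Both kinds of cell occurred in all 16 tumors, with 27 to 102 cells over 40% and 28 to 975 cells under 5% in a tumor.

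The class Fibroblast was not uniform. Its cluster 15 was 16.7 ± 4.98 points above its other cluster, 23 (14.5% ± 2.46), in 16 of 16 tumors, and 19.3 ± 6.96 points above it among G1 cells in 15 of 15 tumors. The clusters also differed in depth and phase: cluster 15 had a median of 1287 UMIs with 14.9% of its cells in G1, and cluster 23 had 6099 UMIs with 76.5% in G1. Fibroblast cells called aneuploid had 32.6% ± 4.28, against 20.1% ± 4.36 in those called diploid, a difference of 12.5 ± 5.45 points found in 16 of 16 tumors. Within cluster 15 alone the aneuploid cells were 10.6 points above the diploid cells (15 of 16 tumors). The aneuploid Fibroblast cells numbered 1827 of 6283 and had a median of 6496 UMIs, against 1201 UMIs in the diploid cells. In cancer cells the corresponding difference was 0.735 ± 4.00 points, positive in 9 of 15 tumors, and so within its spread.

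The share moved with depth in a direction that depended on the class. Cancer cells over 16000 UMIs had 25.2%, against 20.9% at 4000 to 8000 UMIs, a difference of 4.21 ± 3.97 points within a tumor and positive in 16 of 16 tumors. NK cells at 4000 to 8000 UMIs were 7.07 ± 3.05 points above those at 1000 to 2000 UMIs, in 9 of 9 tumors. Macrophages had the same direction (2.55 ± 2.09 points, 15 of 16 tumors), as had dendritic cells (4.73 points, 14 of 15). Monocytes had no fixed direction between these bins (0.199 ± 2.24 points, 9 of 15 tumors).

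Over the whole class, neutrophils fell between the lowest bins and had no fixed direction above them. Those at 1000 to 2000 UMIs were below those under 1000 UMIs, with a difference of -1.94 ± 2.11 points that was positive in only 2 of 16 tumors. Macrophages differed by -0.572 ± 3.55 points between these 2 bins (positive in 7 of 16 tumors). Neutrophils at 2000 to 4000 UMIs differed from those at 1000 to 2000 UMIs by -0.0385 ± 2.64 points (positive in 7 of 16 tumors). At 4000 to 8000 against 1000 to 2000 UMIs the neutrophil difference was -0.256 ± 3.83 points (positive in 2 of 4 tumors). Neutrophil cluster 7 (8404 cells) had 9.47% under 1000 UMIs, 7.09% at 1000 to 2000 and 5.05% at 2000 to 4000 UMIs. These are means of the medians of 16, 16 and 12 tumors. CD4 T cells had no single direction. Those at 1000 to 2000 UMIs were above those under 1000 UMIs by 2.98 ± 3.83 points (9 of 14 tumors), while those at 4000 to 8000 UMIs differed from those at 1000 to 2000 UMIs by -1.32 points, positive in 0 of 7 tumors. Within cluster 15 the share was 22.0% in cells under 1000 UMIs and 39.9% at 4000 to 8000 UMIs (means of the medians of 16 and 15 tumors). The cells called aneuploid moved with these bins, at 1.47% of the cells under 1000 UMIs and 81.5% at 4000 to 8000 UMIs, and the parts of depth and ploidy in this difference were not separated. Across the cells of a tumor, the median rank correlation of share and UMIs was 0.39 in NK cells and 0.18 in cancer cells, positive in 16 of 16 tumors for both, and -0.44 in neutrophils, positive in 4 of 16. Depth enters both measures of such a correlation, since UMIs are the denominator of the share.

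**Figure D3:**
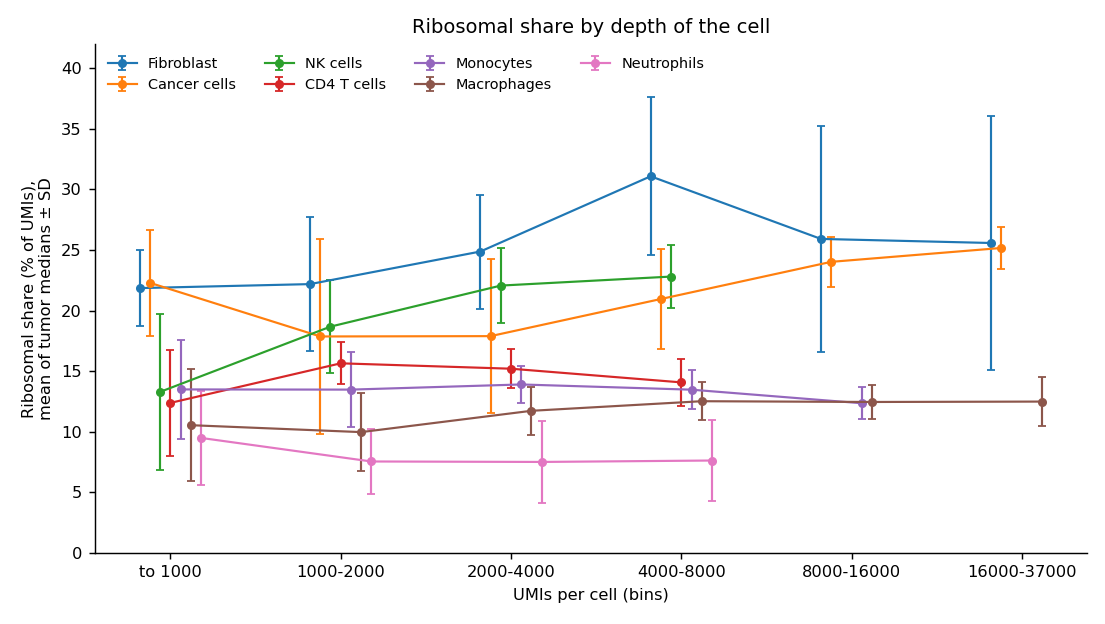
Ribosomal share (% of the UMIs of a cell, y axis) by depth bin (UMIs per cell, x axis) in selected cell classes, as the mean and SD over tumor medians. Cancer cells had 20.9% at 4000 to 8000 UMIs and 25.2% over 16000 UMIs, and Fibroblast cells had 22.2% at 1000 to 2000 UMIs and 31.1% at 4000 to 8000 UMIs.

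Cells called in S phase, where DNA is copied, had higher shares than G1 cells in most classes. The phase came from the table, and each class with at least 10 cells per phase was compared within tumors. Of the 20 class and phase pairs tested, 12 were higher than G1 and 0 lower past an adjusted p of 0.05 (60% of the pairs, exact sign-flip test with Benjamini-Hochberg adjustment).

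The change was largest in the class Fibroblast, with 30.6% in S cells against 17.1% in G1 cells (13.5 ± 6.23 points, 16 of 16 tumors, exact adjusted p = 0.000102). G2M cells, which prepare for or are in division, had 28.5% in that class (11.4 ± 5.95 points above G1, 16 of 16 tumors). Cancer cells had 25.7% in S against 23.4% in G1 (2.32 ± 0.760 points, 16 of 16 tumors), and were 1.801 ± 0.786 points higher in G2M than in G1 (16 of 16). Their depth differed in the same order, with medians of 14881.5 UMIs in S, 17082.5 in G2M and 10529 in G1. In Fibroblast cells depth ran against the share, with 1462 UMIs in S, 1259 in G2M and 5006 in G1.

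Host classes moved less. S cells were higher than G1 cells by 1.66 points in CD8 T cells (14 of 15 tumors, exact adjusted p = 0.000305), by 1.37 in T cells (12 of 14, exact adjusted p = 0.0282) and by 1.27 in dendritic cells (15 of 16, exact adjusted p = 0.00129). Macrophages were 1.02 points higher in S and 0.654 in G2M, and monocytes 0.570 and 0.527, each in 15 or 16 of 16 tumors. CD4 T cells, NK cells and neutrophils passed the test, which did not weight for depth, in neither phase. The G2M difference of CD8 T cells was -0.428 points and did not pass.

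With cells weighted to the same cluster make-up in each phase, the Fibroblast differences were 0.108 points in S (exact adjusted p = 0.939) and -1.89 points in G2M (exact adjusted p = 0.355), so that the change of this class lay between its clusters. For cancer cells the same weighting left 0.687 points in S (exact adjusted p = 0.00107) and -0.0363 points in G2M (exact adjusted p = 0.939). With cells weighted to the same depth bins, cancer cells kept 2.06 points in S and 0.850 in G2M. Under this weighting CD8 T cells (1.07 points, exact adjusted p = 0.0861) and T cells (0.482 points, exact adjusted p = 0.589) no longer passed in S. Calls were gained in G2M by CD4 T cells (1.39 points, exact adjusted p = 0.000543) and T cells (1.67 points, exact adjusted p = 0.00391). Neutrophils gained a call in S (0.376 points, exact adjusted p = 0.00616).

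**Figure D4:**
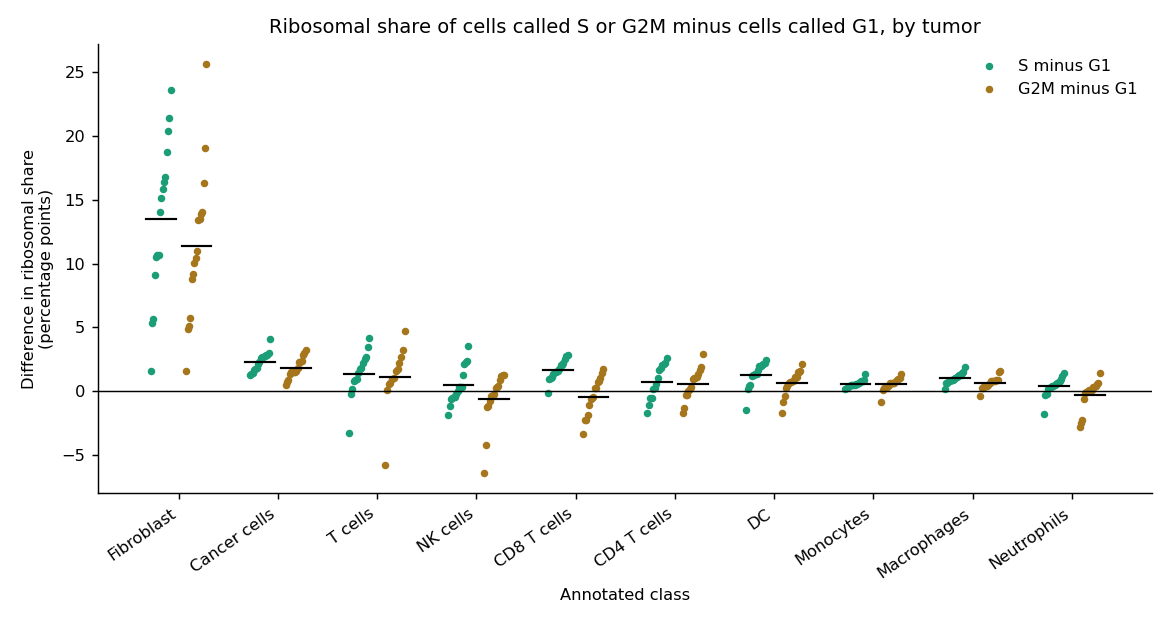
Difference in ribosomal share (percentage points, y axis) between S or G2M cells and G1 cells of the same class (x axis), with 1 point per tumor. All 16 tumors lie above 0 in both phases for Fibroblast (means of 13.5 and 11.4 points) and cancer cells (2.32 and 1.801 points).

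The batches differed among WT tumors alone. The 3 WT tumors of batch 2 were below the 3 of batch 1 without overlap in 9 of the 11 classes compared, with a median ratio of 0.794 (range 0.536 to 1.07), and in 21 of 30 clusters. Counting mutant tumors as well, every batch 2 tumor was below every batch 1 tumor in 6 of 11 classes. WT tumor 6, alone in batch 3, lay between the WT means of batches 1 and 2 in 8 of 11 classes. Mutants were therefore compared with WT tumors of their own batch, by an exact permutation test of the tumor medians within batches.

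In tumors of both 60% groups, CD4 T cells, B cells and monocytes had lower shares than in WT tumors of the same batch. Of 12 classes tested, 3 were called lower and 0 higher (25%, exact within-batch permutation test with Benjamini-Hochberg adjustment), and all 12 differences were negative, with a median of -1.03 points. All 3 are classes of host immune cells, which do not carry the edit, but so were most of the 12 classes tested.

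In CD4 T cells the medians of batch 1 were 16.69%, 16.13% and 14.03% in mt.11944 60% tumors, against 18.48%, 17.78% and 16.79% in WT tumors. In batch 2 they were 11.92%, 12.54% and 10.90% in mt.12436 60% tumors, against 14.12%, 13.23% and 14.67% in WT tumors. All 6 mutant tumors were thus below every WT tumor of their batch. The difference was -2.14 points (95% interval -3.39 to -0.888, exact permutation p = 0.005, adjusted p = 0.03), with 13.7% ± 2.34 in mutant and 15.8% ± 2.13 in WT tumors (SD, n = 6 each).

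B cells had medians of 16.91%, 16.48% and 15.77% in mt.11944 60% tumors, against 18.48%, 17.46% and 17.12% in WT tumors of batch 1. In batch 2 they had 16.56%, 15.02% and 12.73% in mt.12436 60% tumors, against 17.54%, 17.20% and 17.30% in WT tumors. Again all 6 mutant tumors were below every WT tumor of their batch, although a median rested on only 10 to 78 cells. The difference was -1.94 points (95% interval -3.38 to -0.636, exact permutation p = 0.005, adjusted p = 0.03), with 15.6% ± 1.55 in mutant and 17.5% ± 0.496 in WT tumors (SD, n = 6 each). Depth moved with this result: in batch 2 the B cells of mutant tumors had medians of 2006 to 3004 UMIs, against 1417 to 1801 in WT tumors, and within tumors the deeper of these B cells had lower shares (-3.92 points at 2000 to 4000 against 1000 to 2000 UMIs, lower in 5 of 5 tumors). Between 1000 to 2000 and under 1000 UMIs the difference was 5.46 points, positive in 2 of 3 tumors.

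Monocytes had medians of 14.51%, 14.96% and 13.51% in mt.11944 60% tumors, against 16.58%, 15.58% and 16.54% in WT tumors of batch 1. In batch 2 they had 12.39%, 11.78% and 10.73% in mt.12436 60% tumors, against 12.29%, 12.90% and 13.06% in WT tumors. Here 5 of 6 mutant tumors were below every WT tumor of their batch. The difference was -1.51 points (95% interval -2.33 to -0.589, exact permutation p = 0.01, adjusted p = 0.04), with 12.98% ± 1.64 in mutant and 14.5% ± 1.96 in WT tumors (SD, n = 6 each). In batch 2 the share of monocytes in G1 moved with it, at 51.5% to 66.6% in mutant and 69.5% to 73.6% in WT tumors, but among G1 cells alone the difference was -1.55 points (exact adjusted p = 0.04).

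The other classes did not pass. The difference was -1.41 points for CD8 T cells (exact permutation p = 0.045, adjusted p = 0.132), while that of macrophages was -1.01 points (exact permutation p = 0.055, adjusted p = 0.132). The rest ran between -0.169 points in endothelial cells and -3.11 points in Fibroblast cells (exact permutation p = 0.26 for Fibroblast).

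These calls were at the limit of the design and depended on which tumors were included. Leaving out 1 tumor left 200 arrangements in place of 400, so a lost call alone does not show that a single tumor carried it. Without mt.11944 60% tumor 3, mt.12436 60% tumor 3, or any one of WT tumors 1, 3, 4, 5 and 7, the number of called classes was 0, while the differences of the 3 classes stayed negative (B cells -2.17 to -1.40, CD4 T cells -2.37 to -1.84, monocytes -1.74 to -1.27 points). No class was called either with cells weighted to the same depth bins, where CD4 T cells differed by -1.84 points (exact adjusted p = 0.14), B cells by -2.50 (exact adjusted p = 0.228) and monocytes by -1.79 (exact adjusted p = 0.09). Relative to the mean of the tumor over its classes, a scale chosen after seeing the data, the differences were -0.854 points in CD4 T cells (exact adjusted p = 0.36), -0.651 in B cells (exact adjusted p = 0.66) and -0.222 in monocytes (exact adjusted p = 0.84), so a change particular to these classes was not shown.

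**Figure D5:**
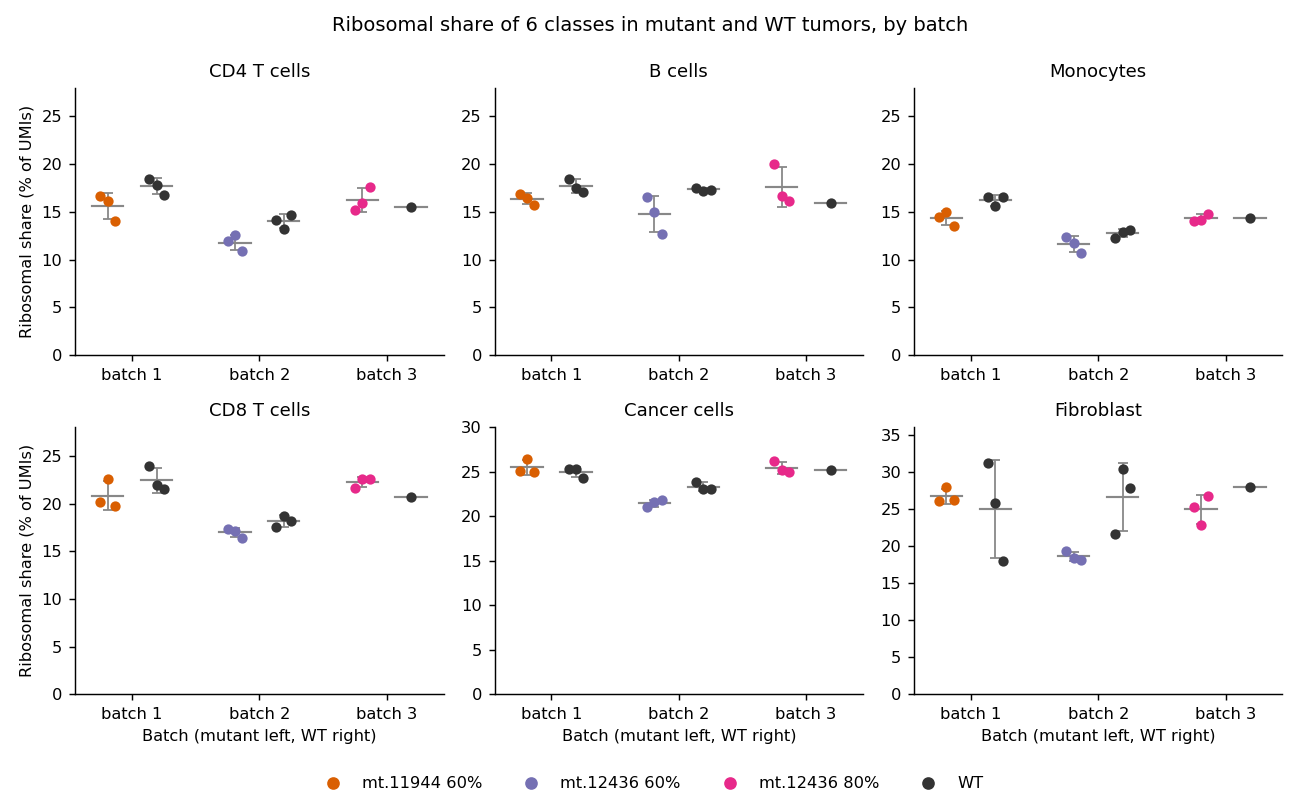
Median ribosomal share (% of the UMIs of a cell, y axis) of single tumors in selected cell classes, grouped by batch with mutant tumors left of WT tumors (x axis). In CD4 T cells all 6 tumors of the 60% groups lie below the WT tumors of their batch, with means of 13.7% in mutant and 15.8% in WT tumors.

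By cluster, 0 of 31 were called between the 60% groups and WT (0%, lowest exact adjusted p = 0.0517), with 26 negative and 9 at an unadjusted p under 0.05. By limma on log2 shares 5 clusters were called, as were 7 by the exact test without mt.12436 60% tumor 1 and 4 without mt.11944 60% tumor 1. All 4 monocyte clusters were among those at an unadjusted p under 0.05 (-1.02 to -1.70 points). In monocyte cluster 6 the medians were 12.99%, 13.08% and 11.94% in mt.11944 60% tumors, against 14.50%, 13.91% and 14.16% in WT tumors of batch 1. They were 9.94%, 9.34% and 9.06% in mt.12436 60% tumors, against 10.07%, 10.34% and 10.53% in WT tumors of batch 2. The 6 mutant tumors were all below the WT tumors of their batch in this cluster, by -1.19 points on average.

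Over all 3 mutant groups together, 0 of 11 classes were called against WT within batch (0%, exact permutation test), with 1 at an unadjusted p under 0.05 and 0 called by limma. That class was the monocytes, with 13.4% ± 1.47 in mutant tumors (n = 9) and 14.5% ± 1.79 in WT tumors (n = 7), a difference of -1.02 points (95% interval -1.90 to -0.289, exact permutation p = 0.00813, adjusted p = 0.0894). Without mt.12436 80% tumor 3 both monocytes and CD4 T cells were called. CD4 T cells differed by -1.20 points (exact adjusted p = 0.412) and Fibroblast cells by -3.08 points (exact adjusted p = 0.412). Of the 30 clusters, 0 were called (0%), 22 were negative and 3 had an unadjusted p under 0.05 in the exact permutation test, with 0 called by limma.

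The mt.12436 80% tumors were all in batch 3, which held a single WT tumor, so they were set against the WT tumors of all batches, 6 of 7 of which were in other batches. This comparison does not account for batch. In it, 8 of 11 classes had positive differences, but 0 were called (0%) and 0 had an unadjusted p under 0.05 in the exact permutation test. Cancer cells had 25.5% ± 0.652 in mt.12436 80% tumors (n = 3) and 24.3% ± 1.03 in WT tumors (n = 7), a difference of 1.15 points (exact permutation p = 0.15). CD8 T cells had 22.3% ± 0.560 in mt.12436 80% tumors and 20.4% ± 2.31 in WT tumors (1.91 points, exact permutation p = 0.233). NK cells had 22.9% ± 0.487 in mt.12436 80% tumors and 21.3% ± 2.55 in WT tumors (1.56 points, exact permutation p = 0.35). Against WT tumor 6, the only WT tumor of batch 3, the differences were 0.252 points in cancer cells, 1.58 in CD8 T cells and 1.41 in NK cells, with no test. They were 0.686 points in CD4 T cells and -0.0462 in monocytes, also untested. B cells were left out here and over all mutants, since mt.12436 80% tumor 3 held only 5. Their medians were 19.97%, 16.66% and 16.13% in mt.12436 80% tumors, against 15.98% in WT tumor 6. The negative differences against all WT tumors were -1.15 points in Fibroblast cells, -0.740 in T cells and -0.139 in monocytes. Fibroblast cells were below WT tumor 6 in all 3 mt.12436 80% tumors. Whether the effect at 80% differed from that of the 60% groups was not tested.

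Between heteroplasmy levels, the mt.12436 80% tumors were above the mt.12436 60% tumors without overlap in 9 of 11 classes, all except endothelial cells and T cells. CD8 T cells averaged 22.3% in mt.12436 80% tumors and 16.98% in mt.12436 60% tumors, and cancer cells 25.5% in mt.12436 80% tumors and 21.5% in mt.12436 60% tumors. With 3 tumors against 3 the smallest exact permutation p is 0.1 (adjusted p = 0.122), and 0 classes were called (0%). The groups share no batch, and WT tumor 6 of batch 3 was also above the mean of the WT tumors of batch 2, with 20.7% against 18.2% in CD8 T cells and 25.2% against 23.3% in cancer cells. Heteroplasmy and batch cannot be told apart here.

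The 60% groups were also compared with each other through their own WT tumors. Cancer cells, the edited cells, had medians of 21.01%, 21.61% and 21.80% in mt.12436 60% tumors, against 23.90%, 23.04% and 23.02% in WT tumors of batch 2. In batch 1 they had 25.04%, 26.43% and 25.01% in mt.11944 60% tumors, against 25.36%, 25.30% and 24.32% in WT tumors. The groups did not overlap in batch 2 and overlapped in batch 1. The effects of -1.85 points for mt.12436 60% and 0.497 points for mt.11944 60% differed by -2.34 points (exact permutation p = 0.03), which was not called after adjustment over 12 classes (0%, adjusted p = 0.36), 1 of 12 being at an unadjusted p under 0.05.

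Fibroblast cells had the widest difference between the edits. Their medians were 19.35%, 18.32% and 18.16% in mt.12436 60% tumors, against 21.58%, 30.40% and 27.80% in WT tumors of batch 2, with no overlap. They were 26.10%, 27.90% and 26.16% in mt.11944 60% tumors, against 31.15%, 25.74% and 17.996% in WT tumors of batch 1, with overlap. The effects of -7.98 points for mt.12436 60% and 1.76 points for mt.11944 60% differed by -9.74 points (exact permutation p = 0.095, adjusted p = 0.57). The share of Fibroblast cells called aneuploid moved with the batch 2 values, at 8.60%, 7.96% and 19.8% in mt.12436 60% tumors against 63.8%, 55.3% and 51.6% in WT tumors. Its part in the result was not tested.

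Over all cells of a tumor, the median share was 16.9% ± 2.66 in mutant tumors (n = 9) and 16.6% ± 2.86 in WT tumors (n = 7). The difference within batches was 0.649 points (95% interval -1.24 to 2.10, exact permutation p = 0.419), made up of -0.510 points in batch 1, -0.781 in batch 2 and 3.24 in batch 3. Make-up moved with it in batch 3: cancer cells were 48.5%, 46.4% and 49.5% of the cells in mt.12436 80% tumors, against 27.2% in WT tumor 6. With every tumor weighted to the same class make-up the difference was -0.654 points (exact permutation p = 0.0256), and without WT tumor 6 the unweighted difference was -0.646 points (exact permutation p = 0.315).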

How the data were processed

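The authors aligned 3′ droplet libraries to GRCm39 with Cell Ranger, clustered cells with Seurat after Harmony integration, named classes with clustifyr and markers, and called aneuploidy with CopyKAT, with T and NK cells as the diploid reference. The deposited metadata table gives UMI counts per cell, the percent of them from ribosomal genes (used as the authors made it) and scores per cell (epithelial, doublet). Share times UMI count was whole in 100% of cells (tolerance 0.001). The members, lists and tests here were chosen with earlier results of these data known.

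The median share per tumor, with at least 10 cells, was the unit of each test, since tumors are the replicates. Nothing in the sources used here says that tumors of a group came from separate injections of separate cultures, so p-values measure the spread between these tumors. Mutant and WT tumors were compared by two-sided exact permutation within batches, and phases by an exact sign-flip test, with Benjamini-Hochberg adjustment at 0.05. The 60% groups had 400 arrangements, each with a mirror image of opposite sign. The smallest two-sided permutation p there is thus 0.005, the value of CD4 T cells and B cells. Intervals (95%) invert the permutation test. Named classes and clusters were those past an unadjusted 0.05 among classes, plus the 3 with the smallest p in a comparison (2 between edits). Alternatives were the mean, the UMI-weighted share, log2, depth, cluster and class weighting, other cell minimums, G1 cells, no batch term, a replicate block, limma on log2 shares, and each tumor left out. Tests ran in Python 3.11.15 (numpy 2.4.6, scipy 1.17.1, pandas 2.3.3, matplotlib 3.10.9) and R 4.3.3 (limma 3.58.1), and were tested on simulated data.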

Additional observations from a re-analysis of the deposited data

Results flagged for a closer look

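The difference of cancer cells from WT tumors had opposite signs in the 60% groups, but the groups were not called different after adjustment. It was -1.85 points for mt.12436 60% and 0.497 points for mt.11944 60%, each against WT tumors of its batch, a difference of -2.34 points (exact permutation p = 0.03, adjusted p = 0.36 over 12 classes). It stayed negative under every alternative run for it, with exact adjusted p of 0.12 to 0.885 and -2.59 to -1.87 points with each tumor left out. Each 60% group sits in a single batch, so between these groups the edit, the edited line and the batch cannot be told apart. The mt.12436 edit was also in batch 3, in the mt.12436 80% tumors. Their cancer cells were on average 0.252 points above the only WT tumor of that batch, with tumors on both sides of it. This difference was not tested. Among 12 classes no WT tumor stood apart from the other WT tumors by Dixon's test. That test took the WT tumors of all batches together, and the batches differed, so it did not test a WT tumor against its own batch.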

How the results depend on the processing

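Each call between the 60% groups and WT was sensitive to the setting. No class was called by the UMI-weighted share (0), with depth weighting (0), with at least 1000 genes per cell (0), by differences of medians (0), relative to the tumor's mean over classes (0) or without both 60% tumors numbered 3 (0), of which the last 2 were chosen after seeing the data, and 1 was called with no batch term; leaving out each tumor gave 0 to 4 called classes. By limma 2 classes and 5 clusters were called, and leaving out each tumor gave 0 to 7 clusters. Over all mutants leaving out each tumor gave 0 to 2 called classes. Signs turned for Fibroblast over all mutants with cluster weighting (0.224 points), for the whole tumor with class weighting (-0.654; -0.646 to 0.969 with each tumor left out), and for G2M with cluster weighting in cancer cells (-0.0363) and Fibroblast (-1.89). Tumor numbers were not used as pairs in the main tests (6 of 18 same-number pairs correlated over 0.1). These correlations used deviations from group means, which for WT tumors span the batches, so they cannot show that pairing is absent. With a replicate block the 60% groups gave 0 called classes, and signs turned for the whole tumor (-2.53) and, at 80%, for CD8 T cells (-0.188) and NK cells (-0.858). The phase tests gave 10 to 17 calls. The share has no absolute scale, genes cannot be separated, and B cells rested on as few as 10 cells in a tumor.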
